A study of Homo sapiens with 8 samples.

Results

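The 6 zinc finger genes ZNF605, ZNF26, ZNF84, ZNF140, ZNF10 and ZNF268 lie in this order at the end of the long arm of chromosome 12, in band 12q24.33, with ZNF891 between ZNF140 and ZNF10. They were taken by name from a count table of 23368 gene symbols, and all 6 passed the filter on low counts that left 15254 genes for testing. The group was chosen by a measured value, the rise of ZNF268 in these libraries when MOV10, an RNA helicase, is knocked down. For these genes the knockdown comparison is therefore given without p-values, and any count of calls in it is a description of what chose them. The libraries came from HEK293F cells, an established line from human embryonic kidney. In 2 libraries the cells had received an siRNA against MOV10, in 3 a plasmid for myc-tagged MOV10, and in 3 an irrelevant siRNA as the control. Both siRNAs were given 3 times, 24 h apart, and the plasmid 1 time, so the overexpressing cells differ from the control cells in the way nucleic acid was delivered as well as in MOV10. Whether replicates are separate cultures is not stated in the labels, so a p-value here measures spread from library to library that may be technical. In such bulk RNA, fewer cells of a type and less RNA per cell cannot be told apart.

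Zinc finger proteins of this family bind DNA through a row of fingers, and many carry a KRAB domain at their amino end. The KRAB domain recruits the corepressor TRIM28, also called KAP1, which brings histone deacetylases, the methyltransferase SETDB1 and HP1 proteins to the bound site, and much of the family is directed at transposable elements. Genes of the family stand in clusters that grew by duplication, most of them on chromosome 19. ZNF10, also known as KOX1, gave the KRAB domain that is widely fused to other DNA-binding proteins as a repressor. ZNF140, ZNF268, ZNF84, ZNF26 and ZNF605 also encode KRAB zinc finger proteins.

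The start regions of the genes are shown because they are the sequence in which these neighbours can be compared. RefSeq (build GRCh38.p14) gave a promoter for 6 of 6 genes, and the 250 bases before the first listed start of each are printed 5′ to 3′ on the gene's own strand. Capitals mark matches, on either strand, to ACTACANNTCC, TGACGTCA, CACGTG or GACGCAATTCCTG. TGACGTCA and CACGTG were chosen after the sequences had been read. The other 2 were found by comparing the 6 regions: ACTACANNTCC was the only word of 6 bases, 2 free bases and 3 bases that at least 4 regions held, a form also chosen after reading, and GACGCAATTCCTG the longest word that ZNF140 and ZNF268 share.
ZNF268 (chr12:133181245-133181494, plus strand): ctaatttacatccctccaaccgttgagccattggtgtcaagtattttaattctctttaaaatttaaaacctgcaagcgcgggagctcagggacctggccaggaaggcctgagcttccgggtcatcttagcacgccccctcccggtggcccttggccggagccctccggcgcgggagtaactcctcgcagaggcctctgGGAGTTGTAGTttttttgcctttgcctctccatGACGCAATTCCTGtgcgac
ZNF140 (chr12:133080673-133080922, plus strand): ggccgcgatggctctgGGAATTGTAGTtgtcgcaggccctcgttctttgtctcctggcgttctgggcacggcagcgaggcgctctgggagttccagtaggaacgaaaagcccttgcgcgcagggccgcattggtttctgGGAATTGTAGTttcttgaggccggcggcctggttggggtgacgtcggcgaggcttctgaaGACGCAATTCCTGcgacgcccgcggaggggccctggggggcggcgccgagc
ZNF26 (chr12:132986117-132986366, plus strand): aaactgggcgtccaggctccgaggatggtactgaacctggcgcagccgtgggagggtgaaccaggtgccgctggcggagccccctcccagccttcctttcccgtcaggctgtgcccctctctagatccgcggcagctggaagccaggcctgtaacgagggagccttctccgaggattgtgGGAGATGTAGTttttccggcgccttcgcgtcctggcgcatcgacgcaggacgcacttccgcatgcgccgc
ZNF605 (chr12:132956307-132956556, minus strand): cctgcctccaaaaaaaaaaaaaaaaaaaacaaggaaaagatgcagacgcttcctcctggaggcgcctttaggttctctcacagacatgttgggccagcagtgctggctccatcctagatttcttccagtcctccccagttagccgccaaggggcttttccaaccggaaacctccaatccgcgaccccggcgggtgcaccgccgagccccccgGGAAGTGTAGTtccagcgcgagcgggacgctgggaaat
ZNF84 (chr12:133037259-133037508, plus strand): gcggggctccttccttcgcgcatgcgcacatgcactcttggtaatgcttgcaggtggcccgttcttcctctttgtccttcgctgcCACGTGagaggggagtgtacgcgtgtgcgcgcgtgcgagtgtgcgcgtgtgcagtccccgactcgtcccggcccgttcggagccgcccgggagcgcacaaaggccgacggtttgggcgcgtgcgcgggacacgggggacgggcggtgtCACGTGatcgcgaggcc
ZNF10 (chr12:133130377-133130626, plus strand): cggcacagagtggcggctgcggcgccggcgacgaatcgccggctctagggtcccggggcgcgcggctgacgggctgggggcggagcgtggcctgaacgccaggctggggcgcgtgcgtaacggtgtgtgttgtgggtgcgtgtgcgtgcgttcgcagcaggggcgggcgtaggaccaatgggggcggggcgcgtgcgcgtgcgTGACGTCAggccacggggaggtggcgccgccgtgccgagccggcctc

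ACTACANNTCC, which resembles part of the element bound by the activator ZNF143, occurred in 4 of the 6 regions and on the strand opposite to the gene in each, so that it is printed here as its reverse complement. It began 52 bases before the start of ZNF268 and 70 bases before that of ZNF26. ZNF140 held it at 234 and 111 bases, and ZNF605 at 38 bases. Among 35116 RefSeq promoters of the same length, 1.79% held it. ZNF10 had instead a TGACGTCA element, the palindrome of cAMP response elements, 47 bases before its start, and 1.65% of promoters hold this. ZNF84 had CACGTG, an E-box, at 165 and 17 bases, a word found in 6.34% of promoters. ZNF140 and ZNF268 shared the 13-base word GACGCAATTCCTG, 51 and 19 bases before their starts, and it was in 2 of the 35116 promoters, these included. ZNF10 and ZNF84 also shared a word of 13 bases, GGGCGCGTGCGCG, which was in 20 promoters, and the other pairs shared at most 10 bases. A match describes the letters only.

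MOV10 followed its labels. It stood at 50.6 and 55.5 CPM (counts in each 1 M reads, with library sizes adjusted by TMM) in knockdown libraries and at 2971, 2916 and 2454 CPM in overexpression libraries, against 76.8, 76.4 and 91.2 CPM in control libraries. Library totals ran from 12.7 M to 32.8 M reads. The zinc finger genes are of modest abundance, with 229 to 1358 reads in a library. All 6 listed markers of HEK293 cells were detected, at levels far apart. Vimentin (VIM) had 1014 to 1095 CPM in knockdown libraries and 746.1 to 795.9 CPM in overexpression libraries, against 815.8 to 833.9 CPM in control libraries. The neurofilament gene NEFL had 154.1 to 162.5 CPM in knockdown libraries and 117.9 to 125.2 CPM in overexpression libraries, against 164.4 to 171.4 CPM in control libraries. The keratin genes KRT8 and KRT18 lay at 116.3 to 142.1 and 51.3 to 63.9 CPM, and NEFM and the kidney gene PAX2 at 7.75 to 10.7 and 7.44 to 12.3 CPM. VIM and NEFL thus moved with the groups. KRT18 had 54.87 to 55.14 CPM with knockdown and 51.31 to 59.81 CPM with overexpression, below its control libraries at 60.21 to 63.92 CPM. NEFM had 9.132 to 9.198 and 10.09 to 10.7 CPM, above its control libraries at 7.748 to 8.955 CPM. KRT8 and PAX2 lay below all control libraries with knockdown and overlapped them with overexpression. The part of these markers in the results was not tested. Another 9 markers of blood, liver, endothelium and muscle lay at 0 to 1.92 CPM, with the globin gene HBB at 0 in every library.

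ZNF268 had 1313 and 772 reads in knockdown libraries and 931, 761 and 506 in overexpression libraries, against 577, 454 and 362 in control libraries. Scaled for depth, these were 41.6 and 41.1 CPM in knockdown libraries and 38.8, 34.1 and 38.8 CPM in overexpression libraries, against 25.6, 23.5 and 24.2 CPM in control libraries. Every treated library of either kind lay above every control library. The log2 fold change with knockdown, the value that chose the gene, was 0.76 ± 0.07 (SE), or 169.1% of the control level. With overexpression it was 0.60 ± 0.07, or 151.8%. The same control libraries enter both values and were part of the choice, so neither is given a p-value.

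ZNF84 was the gene of the cluster most like ZNF268 in the size of its rise with overexpression. It stood at 43.1 and 43.7 CPM in knockdown libraries and at 46.9, 47.8 and 53.5 CPM in overexpression libraries, against 31.7, 33.03 and 34.9 CPM in control libraries. The groups did not overlap, and here the overexpression libraries were the highest. With overexpression ZNF84 rose by 0.57 ± 0.06 on the log2 scale (edgeR quasi-likelihood F test, Benjamini-Hochberg adjusted p = 6.39e-07 over all tested genes), or to 148.3% of control. With knockdown its log2 fold change was 0.39 ± 0.07.

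**Figure D1:**
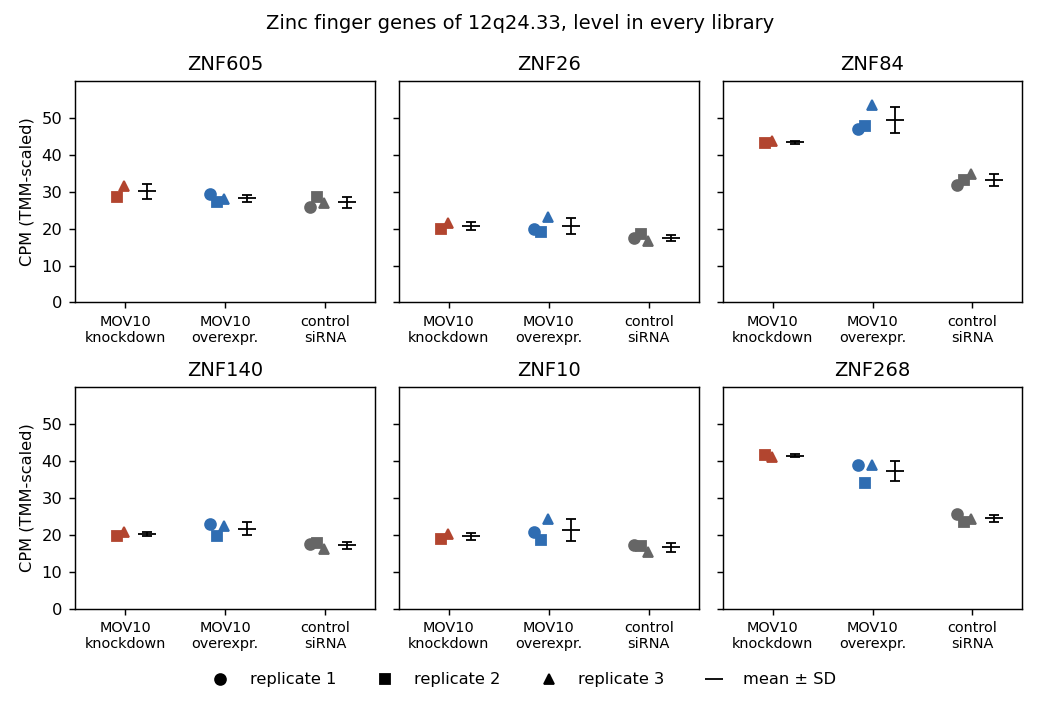
CPM of the 6 zinc finger genes in every library, with the mean ± SD of 2 knockdown, 3 overexpression and 3 control libraries; marker shapes give the replicate number and the panels follow the order on the chromosome. ZNF268 and ZNF84 show a clear gap between treated and control libraries, ZNF140, ZNF10 and ZNF26 a narrow one, and the groups of ZNF605 overlap.

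ZNF140 and ZNF10, whose products are repressors of transcription, changed by less. ZNF140 stood at 19.8 and 20.6 CPM in knockdown libraries and at 22.9, 19.7 and 22.3 CPM in overexpression libraries, against 17.4, 17.8 and 16.2 CPM in control libraries. It rose by 0.33 ± 0.08 with overexpression (edgeR adjusted p = 0.00166), and its log2 fold change with knockdown was 0.23 ± 0.09. ZNF10 stood at 18.9 and 20.2 CPM in knockdown libraries and at 20.8, 18.6 and 24.4 CPM in overexpression libraries, against 17.3, 17.1 and 15.3 CPM in control libraries. All treated libraries were above all control libraries for both genes. ZNF10 rose by 0.33 ± 0.09 with overexpression (edgeR adjusted p = 0.00473) and had a log2 fold change of 0.23 ± 0.10 with knockdown.

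ZNF26 was the least secure of the genes that rose. It stood at 20.0 and 21.4 CPM in knockdown libraries and at 19.8, 19.2 and 23.1 CPM in overexpression libraries, against 17.4, 18.4 and 16.6 CPM in control libraries. The treated libraries were all above the control libraries, by a gap smaller than the range within the overexpression group. The gaps of ZNF140 and ZNF10 were also smaller than that range. The log2 fold change with overexpression was 0.23 ± 0.08 (edgeR adjusted p = 0.0284). The call was lost without overexpression replicate 3, the shallowest library and the one with the most ZNF26 (0.16, edgeR adjusted p = 0.101), and without control replicate 1 (0.22, 0.0808) or control replicate 3 (0.19, 0.103). It was also lost with DESeq2 (adjusted p = 0.0577). With knockdown the log2 fold change was 0.24 ± 0.09.

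ZNF605, which is read from the opposite strand to the other genes, was not called. It stood at 28.6 and 31.6 CPM in knockdown libraries and at 29.3, 27.3 and 28.2 CPM in overexpression libraries, against 25.9, 28.7 and 26.9 CPM in control libraries. The groups overlapped. The log2 fold change with overexpression was 0.06 ± 0.07 (edgeR adjusted p = 0.508), with a 95% interval from -0.08 to 0.20, and with knockdown it was 0.14 ± 0.08. Single libraries moved these small values. The overexpression value was 0.03 without overexpression replicate 1 or control replicate 1, 0.09 without overexpression replicate 2 and 0.10 without control replicate 2, and the knockdown value was 0.22 without knockdown replicate 2 and 0.08 without knockdown replicate 3.

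With overexpression, then, 4 of the 5 genes other than ZNF268 rose and 0 fell. Over all genes tested 49.2% were called, 25.2% higher (3837 of 15254) and 24.1% lower, and over the 437 tested genes with ZNF and a number as their symbol 43.5% rose and 13% fell. The median log2 fold change was 0.33 for the 5 genes, 0.15 for the ZNF genes outside the cluster and 0.01 for all genes. In the order of the 437 ZNF genes from the highest log2 fold change down, ZNF268 was number 41, ZNF84 48, ZNF10 132, ZNF140 133, ZNF26 184 and ZNF605 268. With knockdown 4 of the 6 genes were called higher and 0 lower, beside 39% of all genes called, 19.9% higher and 19.1% lower, and 28.4% of ZNF genes higher and 8.7% lower. Since that comparison chose the group, this count is a description, and it was 2 with DESeq2 or with library totals for scaling. Library totals also moved the split of all called genes with knockdown to 2353 higher and 3611 lower, against 3036 and 2907. In that comparison ZNF268 was number 5 of the 437 ZNF genes and ZNF84 number 45, while the others lay between number 115 and 177. All overexpression libraries were above all control libraries in 4 of the 5 genes other than ZNF268, beside 28.5% of all genes. With knockdown this held for 5 of the 6 genes, a description only, and for 32.5% of all genes.

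**Figure D2:**
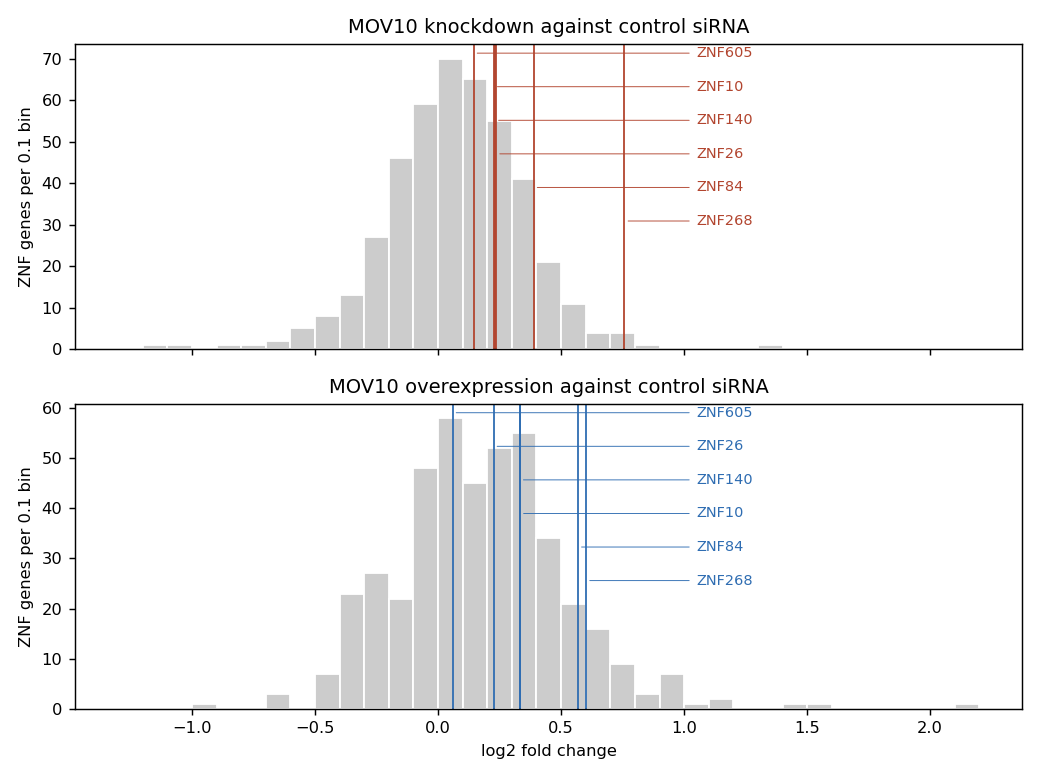
Number of tested ZNF genes (437) per bin of log2 fold change, for knockdown above and overexpression below, with lines at the 6 genes of 12q24.33. ZNF268 stands near the upper end with knockdown (0.76), whereas with overexpression ZNF268 and ZNF84 lie together (0.60 and 0.57) and ZNF605 lies near 0.06.

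Summed over the 6 genes, the cluster gave 172.0 and 178.6 CPM in knockdown libraries and 178.5, 166.7 and 190.3 CPM in overexpression libraries, against 135.3, 138.5 and 134.0 CPM in control libraries. The means were 175.3 ± 4.63 CPM with knockdown (SD, n = 2) and 178.5 ± 11.8 CPM with overexpression (n = 3), against 135.9 ± 2.32 CPM in control (n = 3). These sums take in ZNF268, whose rise with knockdown chose the group, so they and the makeup are a description only. Described so, both treatments had a like sum with different makeups. The share of each gene in the reads of the 6 does not depend on how libraries are scaled. ZNF268 took 24.2% and 23.0% of these reads in knockdown libraries and 20.4% to 21.7% in overexpression libraries, against 17.0% to 18.9% in control libraries. None of the groups overlapped, but ZNF268 was chosen by its rise in these knockdown libraries over these control libraries. Its share is therefore a description only, and a higher share of some genes lowers the shares of the rest. ZNF84 took 25.0% and 24.5% in knockdown libraries, within its control range of 23.5% to 26.0%, and 26.2% to 28.7% in overexpression libraries, above it. ZNF605 took 16.6% and 17.7% in knockdown libraries and 14.8% to 16.4% in overexpression libraries, against 19.1% to 20.7% in control libraries. The share of ZNF26 was also below its control range in every treated library. With overexpression the shares of ZNF140 and ZNF10 overlapped their control ranges. With knockdown they lay below these, at 11.5% to 11.55% against 12.06% to 12.88% for ZNF140 and 11% to 11.31% against 11.42% to 12.81% for ZNF10.

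**Figure D3:**
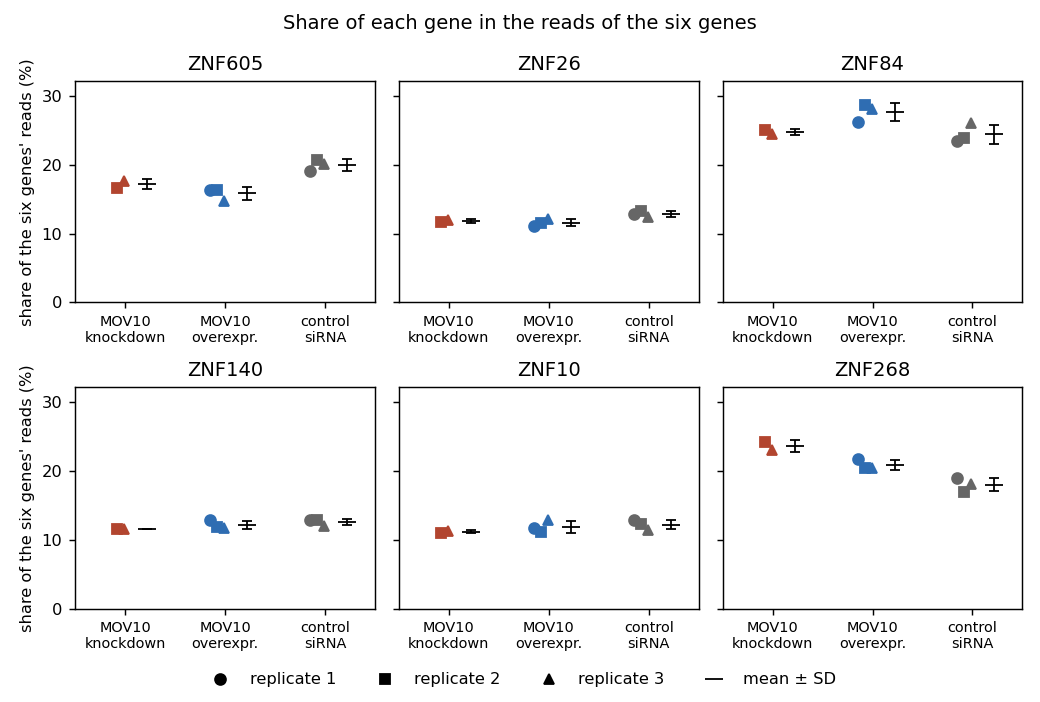
Percentage of the reads of the 6 genes that fell on each gene, by library, with the mean ± SD per group (2 knockdown, 3 overexpression and 3 control libraries). ZNF268 is highest in knockdown libraries (mean 23.6%), ZNF84 in overexpression libraries (27.7%) and ZNF605 in control libraries (19.9%).

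Levels of different genes were compared per kilobase of annotated exon (GENCODE 29). In control cells the order was ZNF84 (3.49 ± 0.165 CPM per kb, SD, n = 3), ZNF140 (3.18 ± 0.156), ZNF10 (2.99 ± 0.2), ZNF605 (2.51 ± 0.133), ZNF268 (1.73 ± 0.0752) and ZNF26 (0.838 ± 0.0434). ZNF84 and ZNF140, and ZNF140 and ZNF10, differed by less than the sum of their SDs. These SDs are between libraries, and within each control library the order of these genes was the same. With knockdown ZNF268 reached 2.93 ± 0.0294 CPM per kb (n = 2), next to ZNF605 at 2.78 ± 0.193, and with overexpression 2.64 ± 0.194 (n = 3), next to ZNF605 at 2.61 ± 0.0924. The exon length used for each gene joins all its annotated transcripts, giving 20.9 kb for ZNF26 and 14.1 kb for ZNF268. Levels over shorter transcripts would be higher, so the order of the genes can depend on this choice.

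The transcripts of the 6 genes shared little sequence with one another. Of all 50-base words in their transcripts, 9 were shared by ZNF26 and ZNF605 and 0 by any other pair. Words shared with other annotated genes made up 0.202% of those of ZNF84, 3.63% for ZNF26, 4.63% for ZNF605, 6.89% for ZNF268, 8.33% for ZNF10 and 11.9% for ZNF140. For ZNF140 the partner was ZNF891, whose exons cover 13.5% of the exon bases of ZNF140 on the other strand. For ZNF268 and ZNF10 it was mainly AC026786.1, annotated on the same strand over 5.97% and 9.62% of their exon bases. For ZNF605 the partners included its neighbour CHFR, annotated on the same strand over 2.21% of its exon bases. The library kit keeps strand, but the strand setting used in counting is not given in the sources used here, so reads of ZNF140 and ZNF891 may not have been told apart. ZNF891 has no entry of its own in the count table.

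The other genes of the band were mostly lower with overexpression or not called. Of 14 listed genes of 12q24.33, 12 were in the table and 11 were tested. The zinc finger gene ZNF891 and LRCOL1 were listed but are not symbols of the count table, so neither was measured here. With overexpression 2 were higher and 7 lower, with a median log2 fold change of -0.16, against the 25.2% and 24.1% of all genes. PGAM5, a mitochondrial phosphatase gene, stood at -0.40 ± 0.07 (edgeR adjusted p = 7.5e-05), and DDX51, an RNA helicase gene of ribosome assembly, at -0.38 ± 0.07 (9.66e-05). CHFR, the mitotic checkpoint ubiquitin ligase gene next to ZNF605, rose by 0.31 ± 0.06 (edgeR adjusted p = 0.000434), with means of 36.3 ± 0.56 CPM with overexpression and 29.3 ± 1.47 CPM in control (SD, n = 3 each). P2RX2, an ATP-gated channel gene, rose by 1.82 ± 0.32 (edgeR adjusted p = 7.61e-05), at a very low level, with 27, 25 and 19 reads in overexpression libraries against 6, 8 and 5 in control libraries. With knockdown 1 was higher and 0 lower, with a median of 0.05, against 19.9% and 19.1% of all genes. That 1 was EP400, a chromatin remodeller gene (0.22 ± 0.06, edgeR adjusted p = 0.00608), whose call was lost without knockdown replicate 2 (0.0786).

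**Figure D4:**
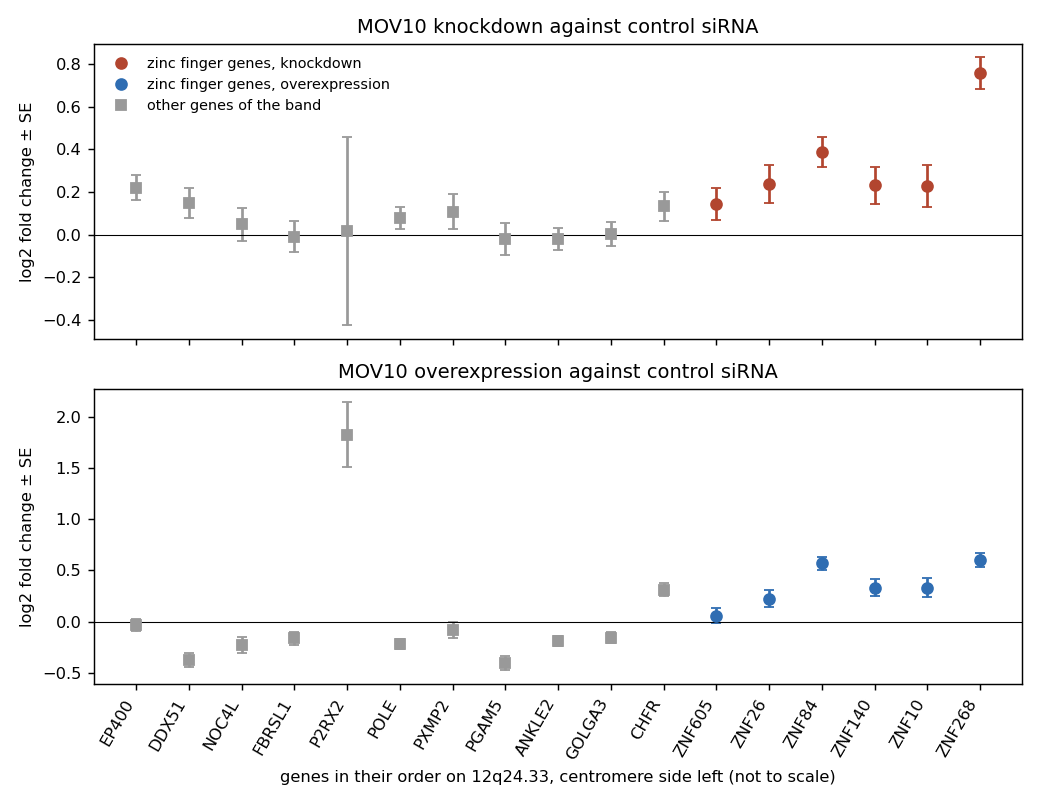
Log2 fold change ± SE for the 6 zinc finger genes (coloured) and 11 other tested genes of 12q24.33 (grey squares), in chromosome order, for knockdown above and overexpression below; the vertical scales differ. With overexpression the grey genes left of CHFR lie below 0 apart from P2RX2 (1.82), and CHFR (0.31) and the zinc finger genes lie above.

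A list of 15 genes of the machinery that KRAB proteins recruit was called about as often as genes in general with knockdown, 3 higher and 3 lower beside 19.9% and 19.1% of all genes, with a median log2 fold change of 0.00. With overexpression 3 were higher and 6 lower, beside 25.2% and 24.1% of all genes, with a median of -0.06. TRIM28, named after its values had been seen because the KRAB domain binds its product, stood at -0.17 ± 0.05 with overexpression (edgeR adjusted p = 0.00926) and at 0.15 ± 0.06 with knockdown (0.0432). The knockdown call was lost with DESeq2 (adjusted p = 0.0527), with library totals (0.161) and without each library in turn except overexpression replicates 2 and 3 (adjusted p up to 0.338). The deacetylase gene HDAC1 and the remodeller gene CHD4 were lower with overexpression, at -0.43 ± 0.05 (edgeR adjusted p = 8.39e-07) and -0.26 ± 0.05 (7.12e-05), while ATF7IP, which encodes the partner of SETDB1, rose by 0.35 ± 0.05 (7.24e-06). The HP1 gene CBX5 averaged 213.1 ± 18.7 CPM with knockdown (n = 2) and 408.4 ± 13.7 CPM with overexpression (n = 3), against 324.1 ± 18.5 CPM in control (n = 3). Its log2 fold change was -0.61 ± 0.06 with knockdown (edgeR adjusted p = 1.79e-07) and 0.33 ± 0.05 with overexpression (2.87e-05). CBX3, another HP1 gene, stood at -0.70 ± 0.06 with knockdown (edgeR adjusted p = 7.77e-09), CBX1 at -0.18 ± 0.05 (0.0136) and the remodeller gene CHD3 at 0.47 ± 0.05 (4.56e-07). The call of CBX1 was lost without either knockdown library (adjusted p = 0.0551 and 0.132) and without control replicate 1 (0.0539).

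Across the 8 libraries the log2 CPM of ZNF268 correlated with that of ZNF140 (Pearson r = 0.861), ZNF84 (0.854), ZNF26 (0.827) and ZNF10 (0.784), and least with ZNF605 (0.613). ZNF10 and ZNF26 were the closest pair of the cluster (0.945). These values rest on 3 groups of libraries and describe them only. Among 11136 other genes whose mean log2 CPM was 3 or more, the nearest to ZNF268 were SPON1 (0.996), LAMC1 (0.995), GALNT7 (0.995), ADAM9 (0.993) and SLC39A7 (0.992), and 371 genes had r above 0.9. The nearest to ZNF84 was CYBRD1 (0.997), to ZNF10 NDUFA5 (0.990), to ZNF140 C5orf28 (0.984), to ZNF26 another zinc finger gene, ZNF107 (0.984), and to ZNF605 ATM (0.957), where 3 genes had r above 0.9.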

How the data were processed

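RNA from 8 HEK293F libraries was measured by stranded RNA sequencing, per the labels' protocols. The deposited values are raw read counts per gene symbol, made by the authors with tools that the submitters' processing notes list as HTSeq 0.5.3p9, TopHat2 2.0.8, SAMtools 0.1.18, Trimmomatic 0.22, CASAVA 1.8.2 and edgeR, with hg19 as the build. How strand and reads aligned to several places were handled in counting is not given in the sources used here. Libraries were grouped by title, and columns were matched to titles.

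All 8 libraries were fitted together with edgeR 4.0.16 in R 4.3.3, using TMM factors, filterByExpr (minimum count 10, minimum total 15), a mean per group and the two-sided quasi-likelihood F test with Benjamini-Hochberg adjustment over 15254 genes. Genes under 0.05 were called. Log2 fold changes are treated over control with their SE from this fit. The procedure was tested on simulated data with far fewer changed genes than were called here. That test therefore cannot check the scaling of libraries when many genes change. Log2 CPM for correlations used a prior count of 2. Total counts were 12.7 M to 32.8 M. No pair of replicates agreed within sampling noise (chi-square per gene 1.85 to 7.81), so spread between libraries limits the precision besides depth. Alternatives were other scalings and filters, DESeq2 1.42.0, limma-voom (limma 3.58.1), only the compared groups, a replicate block, thinning, leaving MOV10 out of the counts and leaving out each library.

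The members, the lists of neighbours and of KRAB cofactors and the marker lists were chosen with earlier results of these data known. Named are the members, MOV10, up to 4 called genes per list and comparison with the smallest adjusted p, and the genes most correlated with the members. No protein sequence was used here. GENCODE 29 and the RefSeq promoters belong to GRCh38, and no coordinate was converted between builds.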

Additional observations from a re-analysis of the deposited data

How the results depend on the processing

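The log2 fold changes of the 6 zinc finger genes were positive in both comparisons under every alternative run, all on the same libraries. ZNF268 was chosen for its rise with knockdown, so its sign there is a description. The value of ZNF605 with overexpression went down to 0.03. The log2 fold change of ZNF268 with knockdown was 0.71 with library totals and 0.73 to 0.80 when 1 library was left out. That of ZNF84 with overexpression lay between 0.52 and 0.61. Here and below, the counts of the 6 genes called higher take in ZNF268, which is given no p-value. Those with knockdown are a description, since that comparison chose the group. Beside them, in the main fit 25.2% of all genes were higher and 24.1% lower with overexpression, and 19.9% higher and 19.1% lower with knockdown. Shares over all genes move with the setting too. With library totals, as given above, fewer of all genes were higher with knockdown and more were lower. A change in a count below therefore cannot be told from a change over all genes. With overexpression the number of the 6 genes called higher was 5, and 4 to 5 without 1 library. With knockdown it was 4, against 2 with library totals, with DESeq2 and with thinned libraries, and 2 to 5 without 1 library. Neighbours higher with overexpression numbered 2, and 1 with the filter at 50 counts, where P2RX2 is not tested. Neighbours higher with knockdown numbered 1, against 2 with only the compared groups or thinned libraries and 0 to 2 without 1 library. KRAB cofactors higher with overexpression numbered 3, and 5 with library totals. With knockdown 3 were higher, against 1 with library totals and 1 to 4 without 1 library, and 3 were lower, against 6 with library totals, 5 with the filter at 50 counts, 7 with only the compared groups and 2 to 5 without 1 library. The ZNF26 call with overexpression was also lost with thinned libraries (adjusted p = 0.0621). Without knockdown replicate 2, where the lone library is assumed to vary like the others, 1577 genes were higher and 1466 lower over all genes, against 3036 and 2907. The causes were not tested.

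Same-numbered libraries deviated together little over all genes (correlations of deviations from -0.0847 to 0.09). With so few libraries this cannot show whether some genes share an effect of the replicate number. A block by replicate number left 5 of the 6 genes higher with overexpression and 3 with knockdown, against 5 and 4 in the main fit. The block also left 1 cofactor higher with knockdown, against 3, and ZNF268 with knockdown at 0.80. Calls over all genes in the blocked fit are not given here. A change in these counts therefore cannot be told from a general change in calls. The values of ZNF26, ZNF140 and ZNF10 rest on at most 631, 624 and 597 reads in a library, and replicates differed beyond counting error.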
